A study of Mus musculus with 5 samples.

Results

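The 10 genes described here belong to WNT signalling: the ligands Wnt4 and Wnt2, the receptors Fzd1 and Fzd4, the secreted antagonists Sfrp1, Sfrp2 and Sfrp4, the matricellular gene Ccn5 (Wisp2 in older annotation), the feedback gene Axin2 and Ctnnb1, which encodes β-catenin. They were found by symbol, and every probe set that the platform annotation gives to one of them alone was taken, 21 probe sets for 10 of the 18194 genes on the array. Expression was measured with Affymetrix 3' arrays in ovarian granulosa cells of mice primed with equine chorionic gonadotropin (eCG) for 48 h and then given human chorionic gonadotropin (hCG), which acts as the ovulatory surge. The knockout mice carried floxed alleles of both C/EBPα and C/EBPβ with Cyp19-cre, a recombinase driven by the aromatase promoter that is active in granulosa cells. There was 1 knockout array at each of 4 h and 8 h (mice of 23 days) and 24 h (24 days), and 1 wild-type array at each of 8 h (23 days) and 24 h (24 days). The sources used here do not say how many mice went into an array, and no wild type at 4 h was analysed here.

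WNT ligands bind Frizzled (FZD) receptors at the cell surface. In the β-catenin branch this stops the breakdown of β-catenin by a complex built on axin, and β-catenin then acts with TCF/LEF factors on target genes such as Axin2, which feeds back on the pathway. Secreted Frizzled-related proteins (SFRPs) carry a domain like that of the receptors and can bind WNT ligands outside the cell. In the ovary, Wnt4 is needed for normal female gonad development in the mouse, and in the rat Fzd1 is known to appear in periovulatory follicles and Sfrp4 in luteinizing granulosa cells.

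With 1 array per group, no single comparison has a replicate check or a p-value. A size rule took its place: passing took a ratio of 2 or more between the intensities (1 on the log2 scale) with the higher of them at or above a floor of 22, the 40th percentile of all values in the table. The probe set of highest mean log2 intensity stood for each gene, and the others are given beside it. Probe sets of the same gene differed from each other with an SD of 0.28 (8 h) and 0.40 (24 h) in the log2 genotype difference, which measures technical spread only. Brightness differs between probe sets for reasons other than RNA amount, so levels are compared only within a probe set. The median intensity of the knockout array at 4 h was 54, against 31 or 32 on the other 4 arrays, so its values lie on another scale. Across 15327 genes Pearson's r between it and the other arrays was 0.86 to 0.91, and among those 4 it was 0.94 to 0.98; these are correlations across genes, which are no replicates. Both targeted genes were low in the knockout, with Cebpa at 19 and Cebpb at 1127 at 8 h, against 685 and 7436 in wild type, and at 38 and 85 at 24 h, against 352 and 3976 in wild type. Granulosa markers were present on every array, Inha and Foxl2 among them, and 10 of the 12 in the list had a probe set with 1 symbol.

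Past the rule, Fzd1, Sfrp1 and Ccn5 lay below wild type in the knockout at 8 h, as did Sfrp2 at 24 h. Wnt4 and Fzd4 differed by less than 2-fold, and Sfrp4, Axin2 and the brightest probe set of Ctnnb1 by 0.31 or less on the log2 scale. The most marked changes were in time, with Fzd1 lower and Ccn5 higher at 24 h than at 8 h in both genotypes. The upstream 250 bases of Fzd1, Sfrp2 and Wnt4 are shown because these members differed between genotypes or in their time change and have an entry among the RefSeq promoters (GRCm38.p6), as do 7 of the 10 members. Fzd1 and Sfrp2 carry a match to TTNNGNAA, a loose form of the C/EBP recognition core, in capitals, and Wnt4 carries none. Each runs 5′ to 3′ in the direction of transcription and ends at the base before the annotated start.
Fzd1, chr5:4758217-4758466, minus strand: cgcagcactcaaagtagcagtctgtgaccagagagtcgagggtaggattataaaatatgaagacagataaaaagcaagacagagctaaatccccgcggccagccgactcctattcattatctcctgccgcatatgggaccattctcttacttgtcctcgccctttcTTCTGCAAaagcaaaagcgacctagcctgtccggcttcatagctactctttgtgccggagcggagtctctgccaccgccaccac
Sfrp2, chr3:83766071-83766320, plus strand: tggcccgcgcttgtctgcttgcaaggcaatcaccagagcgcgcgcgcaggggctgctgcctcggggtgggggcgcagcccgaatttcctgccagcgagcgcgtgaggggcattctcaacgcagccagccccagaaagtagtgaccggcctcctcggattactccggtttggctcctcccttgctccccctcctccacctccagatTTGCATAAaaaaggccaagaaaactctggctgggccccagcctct
Wnt4, chr4:137277385-137277634, plus strand: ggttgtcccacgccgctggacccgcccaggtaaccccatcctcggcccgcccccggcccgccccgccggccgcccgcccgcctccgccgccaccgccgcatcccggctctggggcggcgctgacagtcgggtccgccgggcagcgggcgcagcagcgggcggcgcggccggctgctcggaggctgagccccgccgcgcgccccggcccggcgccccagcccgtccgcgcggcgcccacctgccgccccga
On either strand, TTNNGNAA was found in 36.8% of all 32851 RefSeq promoter windows of this length, so a match is a common event. The Fzd1 match begins 84 bases before the start (TTCTGCAA) and that of Sfrp2 45 bases before it, where the strand shown reads TTGCATAA. Wnt2 had 2 matches, while Wnt4, Fzd4, Axin2 and Ctnnb1 had none in these windows. The TCF/LEF letters CTTTGAT and CTTTGAA, found in 3.21% and 4.46% of windows, were in none of the member windows, and no matches overlapped. These are letter matches, not binding sites.

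**Figure D1:**
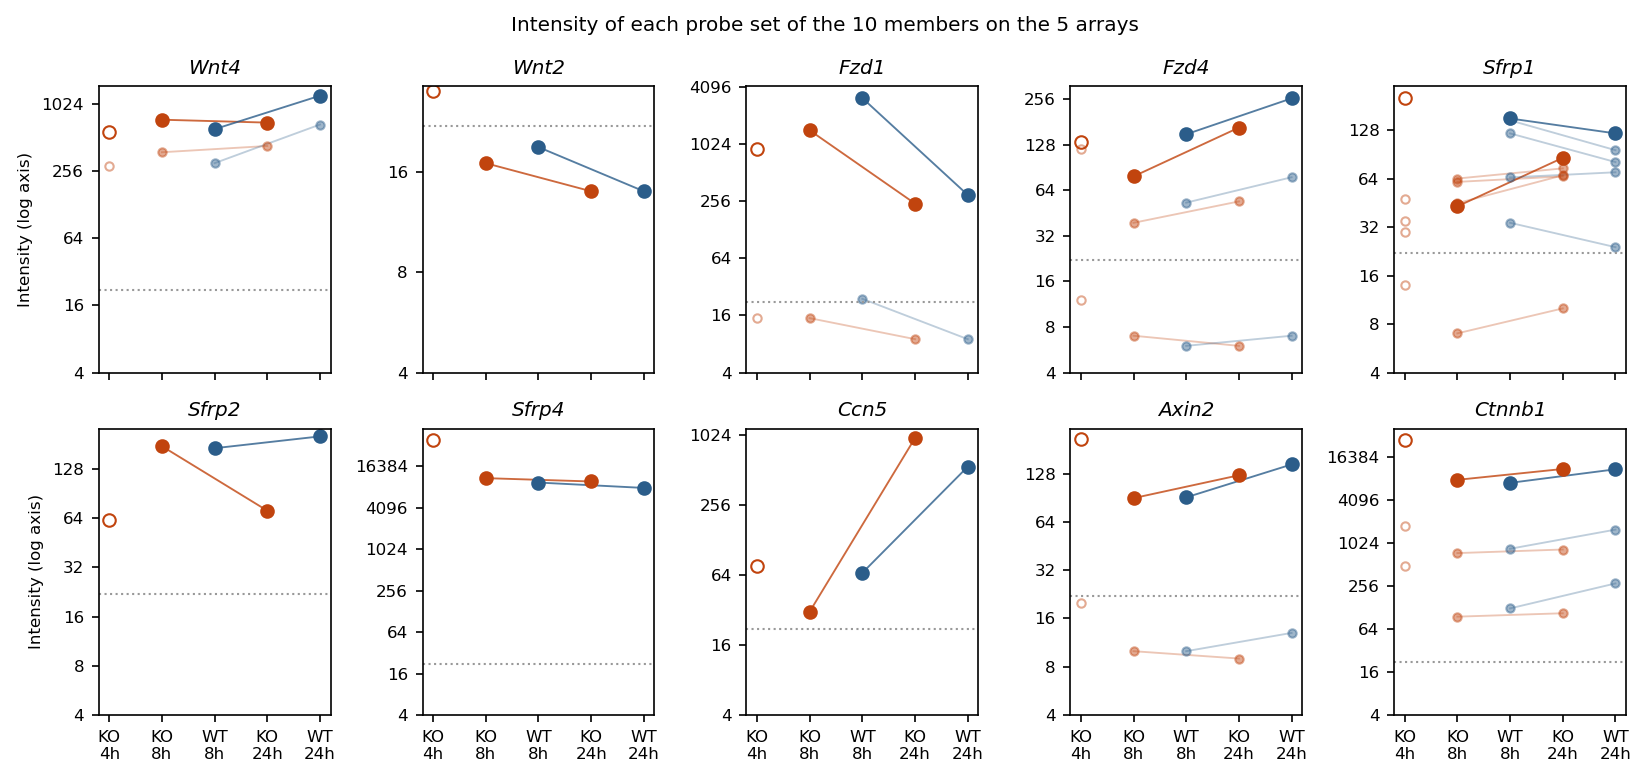
Intensity (log axis) of every probe set of the 10 members on the 5 arrays, knockout in red and wild type in blue. Large points are the probe set that represents the gene, small pale points are its other probe sets, lines join 8 h to 24 h within a genotype, the open point is the knockout at 4 h on its own scale, and the dotted line is the floor of 22. Ccn5 climbs to 971 in the knockout and 550 in wild type at 24 h, and Fzd1 drops to 243 and 300.

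Of the ligands, Wnt4 differed between genotypes mainly in its time course. Its brighter probe set (1450782_at) read 738 in the knockout and 607 in wild type at 8 h. At 24 h its values were 695 in the knockout and 1211 in wild type, with 567 for the knockout at 4 h. The second probe set (1441687_at) ran in parallel, with 377 in the knockout against 301 in wild type at 8 h and 429 against 668 at 24 h. Between 8 h and 24 h the knockout changed by -0.09 on the brighter and 0.19 on the second. Wild type was higher at 24 h on both, by a log2 difference of 1.0 on the brighter, a ratio just short of the rule, and of 1.15 on the second, which passed it. At 24 h Wnt4 was 1.74-fold lower in the knockout, below the rule's size, and the difference between the genotypes' time changes was -1.08. Wnt2 was not detected, reading 17 in the knockout and 19 in wild type at 8 h and 14 in each at 24 h, all under the floor. Its 28 in the knockout at 4 h lies on that array's higher scale, and became 17.0 after quantile normalization of the 5 arrays.

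Fzd1 and Fzd4 encode receptors for WNT ligands, and both were below wild type at each time. Fzd1 (1437284_at) read 1444 in the knockout against 3161 in wild type at 8 h, 2.19-fold lower and past the rule. On the same pair of arrays 15 of 16 stroma and smooth muscle markers were lower in the knockout too, and in such samples fewer cells of a type and less RNA per cell cannot be told apart. The 24 h values of Fzd1 were 243 in the knockout and 300 in wild type, and the knockout at 4 h read 910. Fzd1 was thus 5.94-fold lower at 24 h than at 8 h in the knockout and 10.5-fold lower in wild type, a fall that only 36 of 13054 genes exceeded in wild type. The second Fzd1 probe set (1422985_at) was under the floor on every array except wild type at 8 h, where it read 24, and with the mean of both the difference at 8 h no longer passed. Fzd4 (1434756_at) had an intensity of 79 in the knockout and 150 in wild type at 8 h, a log2 difference of -0.93. At 24 h it was 166 in the knockout and 259 in wild type, a difference of -0.64, and it was 133 in the knockout at 4 h. Unlike Fzd1, Fzd4 was higher at 24 h than at 8 h, 2.10-fold in the knockout, which passed, and 1.73-fold in wild type, which did not. The probe set 1419301_at had 39 in the knockout and 53 in wild type at 8 h, then 54 in the knockout and 78 in wild type at 24 h, with time changes of 0.47 and 0.56. The knockout call for Fzd4 did not hold with the mean of its 3 probe sets (0.44), one of which was under the floor throughout.

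The antagonist Sfrp1 was lower in the knockout at 8 h on all 5 of its probe sets. The one that represents it (1428136_at) read 43 in the knockout and 151 in wild type, 3.51-fold lower. The next in brightness read 64 against 147 (1448395_at) and 61 against 122 (1416594_at), and the others 45 against 65 (1438620_x_at) and 7 against 34 (1460187_at). All but 1438620_x_at passed the rule. On 1460187_at the knockout value was under the floor, and with the floor in its place the difference is at least 1.55-fold. At 24 h the representing probe set read 86 in the knockout and 122 in wild type, a log2 difference of -0.50. The others had -0.06 to -1.26, so each of the 5 was still below wild type. Only 1460187_at was past the rule (10 in the knockout against 24 in wild type). Its knockout value was again under the floor, so that difference is only known to be at least 1.09-fold. The time change of Sfrp1 in the knockout is not settled, because the representing probe set doubled exactly, by a log2 difference of 1.0, while 1448395_at and 1416594_at changed by 0.21 and 0.11 and the mean of all 5 by 0.48. The 4 h array was less certain still, with 203 on 1428136_at but 30, 35, 48 and 14 on 1448395_at, 1416594_at, 1438620_x_at and 1460187_at.

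Sfrp2 had close levels in both genotypes at 8 h and a lower one in the knockout at 24 h. Its single probe set (1448201_at) read 176 in the knockout and 171 in wild type at 8 h, and 71 against 202 at 24 h, 2.85-fold lower, while the knockout at 4 h read 62. In the knockout it was 2.48-fold lower at 24 h than at 8 h, and in wild type 1.18-fold higher. The difference between these changes was -1.55, and 139 of 13316 genes had a more negative one.

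Sfrp4 changed little over the 4 arrays at 8 h and 24 h. Its probe set (1451031_at) read 10938 in the knockout and 9441 in wild type at 8 h, and 9783 against 7887 at 24 h, log2 differences of 0.21 and 0.31. Between 8 h and 24 h it changed by -0.16 in the knockout and by -0.26 in wild type. In the knockout at 4 h it read 39479. By the distance between log2 values centred over the 4 arrays at 8 h and 24 h, the genes of most similar pattern were Cep350, Zfp12 and Mapre1, at distances of 0.01, 0.03 and 0.03 among 13316 genes. Such distances are far below the SD of 0.28 and 0.40 between probe sets, and a nearly flat pattern says little about likeness.

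Ccn5, a secreted protein of the CCN family that lacks the C-terminal module of its relatives and is known as a WNT-responsive gene in other cells, had the largest time change of the 10 members in the knockout. It read 31 in the knockout and 67 in wild type at 8 h, 2.16-fold lower and past the rule. By 24 h it reached 971 in the knockout and 550 in wild type, 1.77-fold higher and short of the rule, and the knockout at 4 h read 77. In the knockout it was 31.3-fold higher at 24 h than at 8 h, the first of 12999 genes by measured log2 difference, with Oxtr (938 against 30, 24 h against 8 h) next. In wild type it was 8.21-fold higher, and 32 genes had a larger difference there. The genotype order of Ccn5 was therefore opposite at the 2 times, and the difference between the changes was 1.93. It has a single probe set with its symbol alone (1419015_at), so no second one checks this. The genes of most similar pattern were Gm2a, Cemip and Mgst2, at distances of 0.42, 0.77 and 0.82. Gm2a read 12710 in the knockout against 9280 in wild type at 24 h and 606 against 1042 at 8 h, with the same order of genotypes as Ccn5.

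Axin2, commonly read as a marker of β-catenin activity, read 90 in the knockout and 91 in wild type at 8 h (1436845_at). Its 24 h values were 125 in the knockout and 146 in wild type, a log2 difference of -0.22, and the knockout at 4 h had 209. It was higher at 24 h than at 8 h by 0.47 in the knockout and 0.68 in wild type, short of the rule. Its second probe set (1421341_at), 9 to 13 on these 4 arrays, was under the floor. The 3 probe sets of Ctnnb1 disagreed. The brightest (1420811_a_at) read 7791 in the knockout and 7069 in wild type at 8 h, and 11052 against 10942 at 24 h, a difference of 0.01. At 24 h, however, 1450008_a_at read 826 in the knockout against 1567 in wild type, and 1430533_a_at read 106 against 277, log2 differences of -0.92 and -1.39. The last passed the rule, and the mean of the 3 was -0.77. In the knockout at 4 h the 3 read 28442, 1790 and 479.

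**Figure D2:**
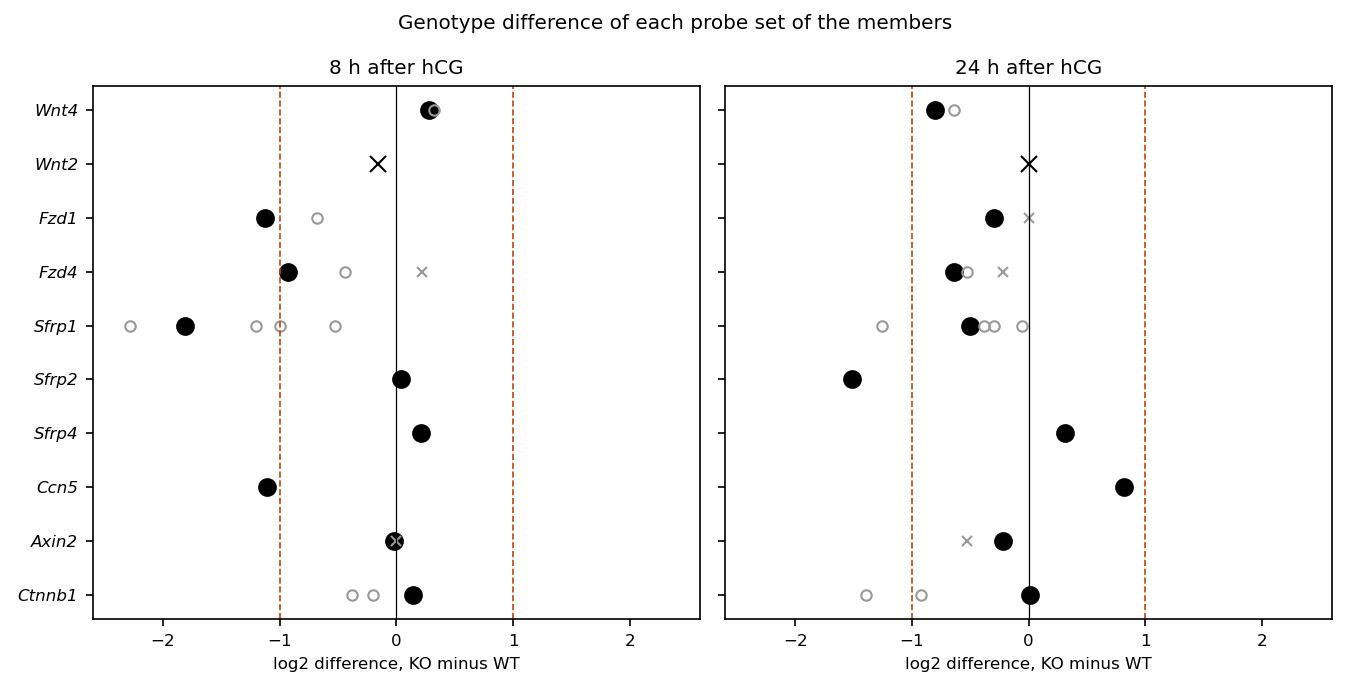
Log2 difference between knockout and wild type for each probe set of the members at 8 h (left) and 24 h (right). Filled points represent the gene, open points are its other probe sets, crosses are probe sets under the floor on both arrays, and dashed lines mark 2-fold. At 8 h all 5 Sfrp1 probe sets lie left of 0, and at 24 h Sfrp2 lies at -1.51.

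Counted by gene, 9 of the 10 members were above the floor in every comparison, all except Wnt2. At 8 h, 3 were lower in the knockout and none higher, where 5.63% of 12924 genes passed in either direction, 1.58% higher and 4.05% lower. At 24 h, 1 was lower and none higher, against 7.04% of 13052 genes in either direction, 3.13% higher and 3.92% lower. The median log2 difference of the members was -0.02 at 8 h and -0.30 at 24 h, beside -0.01 and 0.05 over all genes. From 8 h to 24 h, 5 passed in the knockout, 3 higher (Fzd4, Sfrp1, Ccn5) and 2 lower (Fzd1, Sfrp2), where 12.1% of 12999 genes passed, 6.85% higher and 5.26% lower. In wild type 2 passed, Ccn5 higher and Fzd1 lower, where 12.0% of 13054 genes did, 5.55% higher and 6.45% lower. Their median was 0.47 in the knockout and 0.63 in wild type, beside 0.07 and 0.00 over all genes. The comparisons of genotype and of time use the same 4 arrays and are not independent. The genotypes' time changes differed by at least 2-fold for Wnt4, Sfrp1, Sfrp2 and Ccn5, 4 of 9 members, where 8.13% of 13316 genes passed, 5.04% higher and 3.09% lower. Sfrp1 dropped out with the mean of its probe sets (0.86). In this comparison 14 of 16 stroma and smooth muscle markers were higher, as Sfrp1 and Ccn5 were, with a median of 1.77. So were 4 of 7 theca markers, with a median of 2.01, and 5 of 14 endothelial markers, with all 14 above 0 and a median of 0.80. Lists with a median below 0, the direction of Wnt4 and Sfrp2, were the luteal one (-0.44, 2 higher and 3 lower of 9) and the surface epithelium one (-0.61, 1 higher and 2 lower of 10). Leukocyte markers had 2 higher and 4 lower of 13 and a median of 0.29, granulosa and oocyte markers had none of 10 each past the rule, and the part of these cell types in the members' values was not tested.

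**Figure D3:**
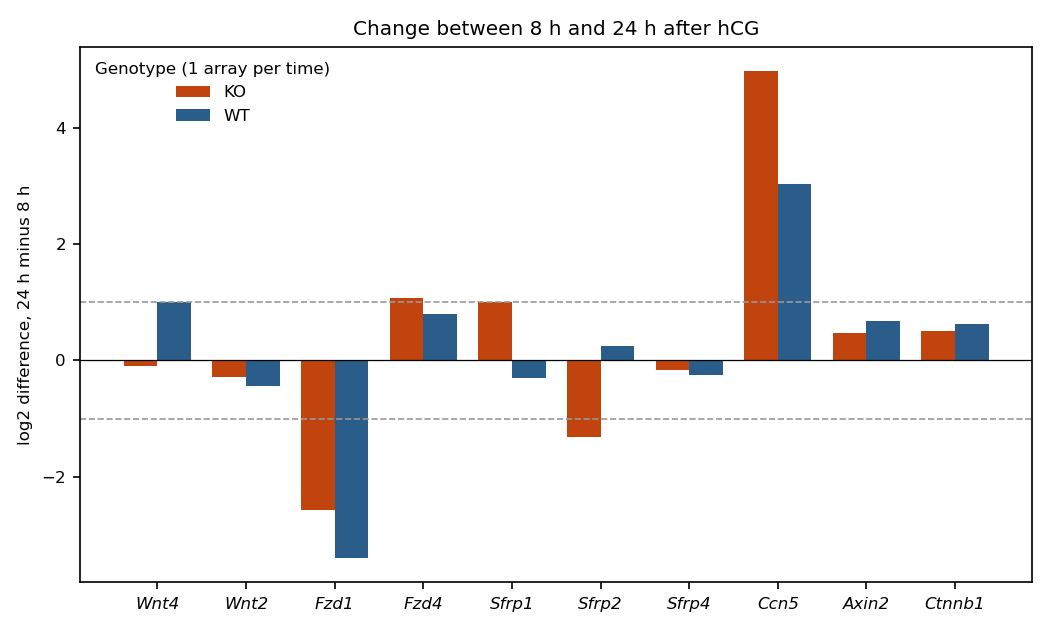
Log2 difference of 24 h minus 8 h for the probe set that represents each member, in the knockout (red) and in wild type (blue). Bars start at 0, each rests on 1 array per time, and dashed lines mark 2-fold. Ccn5 rises in both, by 4.97 and 3.04, Fzd1 drops in both, and Sfrp2 passes -1 in the knockout, with 0.24 in wild type.

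The genotype and time effects shared across the 4 arrays were fitted with limma, whose residual comes from genotype by time interaction and holds no replicate error. For the time effect averaged over knockout and wild type, Fzd1 changed by -2.98 ± 0.25 on the log2 scale (SE, 4 arrays), with a limma adjusted p of 0.0351. It was lower at 24 h in both genotypes, and its adjusted p ranged from 0.00625 to 0.248 under the alternatives. Ccn5 changed by 4.00 ± 0.51, higher at 24 h in both genotypes, and missed the threshold of 0.05 with a limma adjusted p of 0.0515 (0.0131 to 0.248 under the alternatives). Of 13316 genes, 2.41% were called, 0.976% higher and 1.43% lower at 24 h. Fzd4, at 0.93, and Ctnnb1, at 0.57, had limma adjusted p of 0.0858 and 0.0802. For the effect of genotype over both times, limma called 0 of 13316 genes, 0% of them, although 1505 had an unadjusted p under 0.05. Among the 9 members tested, 3 were in that number, Fzd4 (-0.78 ± 0.19), Sfrp1 (-1.16 ± 0.37) and Fzd1 (-0.72 ± 0.25), each lower in the knockout at both times. Their limma adjusted p was 0.375, 0.424 and 0.44. Ccn5 and Sfrp2, whose difference at 1 time was opposite or absent at the other, had averaged effects of -0.15 ± 0.51 and -0.73 ± 0.42.

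The wider pathway was read from lists of 111 genes, 110 of them on the array, that include the members. Outside the members, 80 were above the floor at 8 h, of which 8 were lower in the knockout and 1 higher. Over all genes 4.05% were lower and 1.58% higher. Frzb, another secreted antagonist of the SFRP family, read 72 in the knockout and 396 in wild type, 5.50-fold lower. The ligand genes Wnt5a and Wnt6 read 34 against 157 and 47 against 138, though the average over all 4 probe sets of Wnt5a fell short (-0.98). Porcn, the acyltransferase that WNT ligands need for secretion, read 86 in the knockout and 270 in wild type. Among target genes, Ccnd1, a D-type cyclin, was 3.79-fold, Bmp4, a BMP ligand, 4.54-fold, Ccn4 2.52-fold and Tnfrsf19 2.42-fold lower. Averaging its probe sets took Tnfrsf19 off the list (-0.42). Porcn has only a probe set ending in _a_at, a kind that an alternative left out together with _s_at and _x_at ones. Ccn2 was 2.25-fold higher, at 4602 in the knockout against 2045 in wild type. On the same pair of arrays 15 of 16 stroma and smooth muscle markers were lower in the knockout, with a median of -2.20. So were 12 of 13 endothelial markers, with a median of -1.72, and in neither list did a marker pass as higher. The part of such cells in the lower genes of this paragraph was not tested. None of 20 genes of the cytoplasmic signal chain, Ctnnb1 included, and none of 12 TCF/LEF factors and cofactors passed at 8 h, with medians of 0.13 and 0.07.

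At 24 h, 4 of 80 were lower and 4 higher in the knockout, where 3.92% of all genes were lower and 3.13% higher. These counts lie near the shares of all genes. Myc, a growth regulator and known WNT target, read 476 in the knockout against 1322 in wild type. Apcdd1, an inhibitor of WNT signalling, read 164 against 498, and Ccnd1 59 against 137, which averaged to -0.95 over its probe sets and no longer passed. Ccn1 was 3.23-fold lower on a probe set open to cross-hybridization (1416039_x_at), and the call was lost without _x_at, _s_at and _a_at probe sets. Jup, which encodes plakoglobin, a close relative of β-catenin, read 163 in the knockout and 63 in wild type. Tle2, a co-repressor of TCF/LEF factors, read 888 against 387, Lgr6, an R-spondin receptor, 207 against 85, and Ccn2 1638 against 755. Averaged over probe sets, Lgr6 (0.92) was not called. Jup has only an _s_at probe set, and Myc and Tle2 only an _a_at one each, so the alternative without those kinds had no value for them. Among 20 genes of the cytoplasmic signal chain, 18 lay above wild type, where 43.7% of 13052 genes lay below it. Their median was 0.38, beside 0.05 over all genes, and Jup alone passed. Ctnnb1 is among the 18 at 0.01 on its brightest probe set, but the mean of its 3 probe sets was -0.77. Of 12 TCF/LEF factors and cofactors, 11 lay above wild type too, with a median of 0.50, and Tle2 alone passed.

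Between 8 h and 24 h, 10 of 79 genes outside the members were higher and 6 lower in the knockout, and 7 higher and 7 lower in wild type. Over all genes 6.85% were higher and 5.26% lower in the knockout, and 5.55% higher and 6.45% lower in wild type. Tle1, another co-repressor, was 2.99-fold lower at 24 h in the knockout and 4.14-fold lower in wild type. Apcdd1 was lower in both, 6.47-fold in the knockout and 4.18-fold in wild type, and Ccn2 2.81- and 2.71-fold. Tle2 was higher in both, 5.32-fold in the knockout and 2.45-fold in wild type, as was Wnt10b, at 2.39- and 2.51-fold. Both have only an _a_at probe set. The orphan-type receptor gene Ror1 was 3.31-fold higher in the knockout and 4.36-fold in wild type, and Lgr5, an R-spondin receptor, at least 2.55-fold and 2.44-fold. With the mean of the probe sets neither passed in either genotype. Znrf3, a ligase that removes Frizzled receptors from the membrane, was 1.79-fold higher in the knockout and 3.59-fold higher in wild type (653 against 182, 24 h against 8 h). Myc likewise was 1.24-fold higher in the knockout and 4.07-fold in wild type. Past the rule in the knockout alone were Wnt5a (5.50-fold higher), Wnt5b, Ccn4, Jup, Lgr6 and Rspo1 among the higher, and Cd44 (4.02-fold), Ccn1 and Tle3 among the lower. In wild type alone these were Fzd5, Znrf3 and Myc, and Bmp4 (6.74-fold), Frzb (5.01-fold), Porcn (3.33-fold) and Tle4. The calls for Lgr6, Fzd5 and Tle4 were lost with the mean of their probe sets, and that for Rspo1 once values below the floor were set to it. Wnt5b lost its call without _x_at, _s_at and _a_at probe sets, while Jup, Myc and Porcn have no others. Markers of other cell types moved in the same comparisons. In the knockout 6 of 15 stroma and smooth muscle markers were higher at 24 h (median 0.72), as Wnt5a and Ccn4 were, with 1 of 7 theca markers higher and 1 lower (median 0.00) and 1 of 10 endothelial markers lower (median 0.20). In wild type 8 of 16 stroma markers (median -0.95), 4 of 7 theca markers (median -2.01) and 4 of 14 endothelial markers (median -0.80) were lower, as Bmp4, Frzb and Porcn were. Their part in these changes was not tested. Passing in 1 genotype only is no test of a difference between the genotypes.

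Other cell types of the ovary left markers on these arrays that also differed. At 8 h, 15 of 16 stroma and smooth muscle markers were lower in the knockout, with a median log2 difference of -2.20, and their summed intensity was 6608 in the knockout and 29735 in wild type. Of 13 endothelial markers above the floor, 12 were lower, with a median of -1.72 and sums over the list of 640 against 2112. Theca markers had 3 of 7 lower and a median of -0.99, and leukocyte markers 4 of 13 lower, 1 higher and a median of -0.57. Of 10 surface epithelium markers 2 were higher, and of 10 oocyte markers none passed. At 24 h the stroma list had 3 of 15 lower, with a median of -0.44 and sums of 13271 in the knockout and 19588 in wild type, and the endothelial list 3 of 13, with a median of -0.76 and sums of 689 in the knockout and 1336 in wild type. Also at 24 h, leukocyte markers had 3 of 12 lower and a median of -0.36, and surface epithelium markers 1 of 10 lower (Krt7) and a median of -0.50, beside a median of 0.09 at 8 h. Theca markers had 1 of 6 higher and a median of 0.14, and of 10 oocyte markers none passed, with a median of 0.36. Of the granulosa list, Fst alone was lower at 8 h and none of 10 passed at 24 h, with medians of 0.12 and 0.11. No marker of these lists was under the floor on all 5 arrays. The part of these cell types in the lower Fzd1, Sfrp1 and Ccn5 at 8 h, and in the lower Sfrp2 at 24 h, was not tested. Nor was their part in the other WNT list genes that differed between genotypes. Luteal markers were also lower, 4 of 9 at 8 h and 5 of 9 at 24 h, with medians of -0.89 and -1.94. Those past the rule were Ptgfr, Akr1c18, Bhmt and Abcb1b at 8 h, and Star, Ptgfr, Bhmt, Abcb1b and Parm1 at 24 h. Cyp11a1, Hsd3b1 and Scarb1 passed at neither time. This list was chosen with earlier results of these data known, so its count is no independent result.

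**Figure D4:**
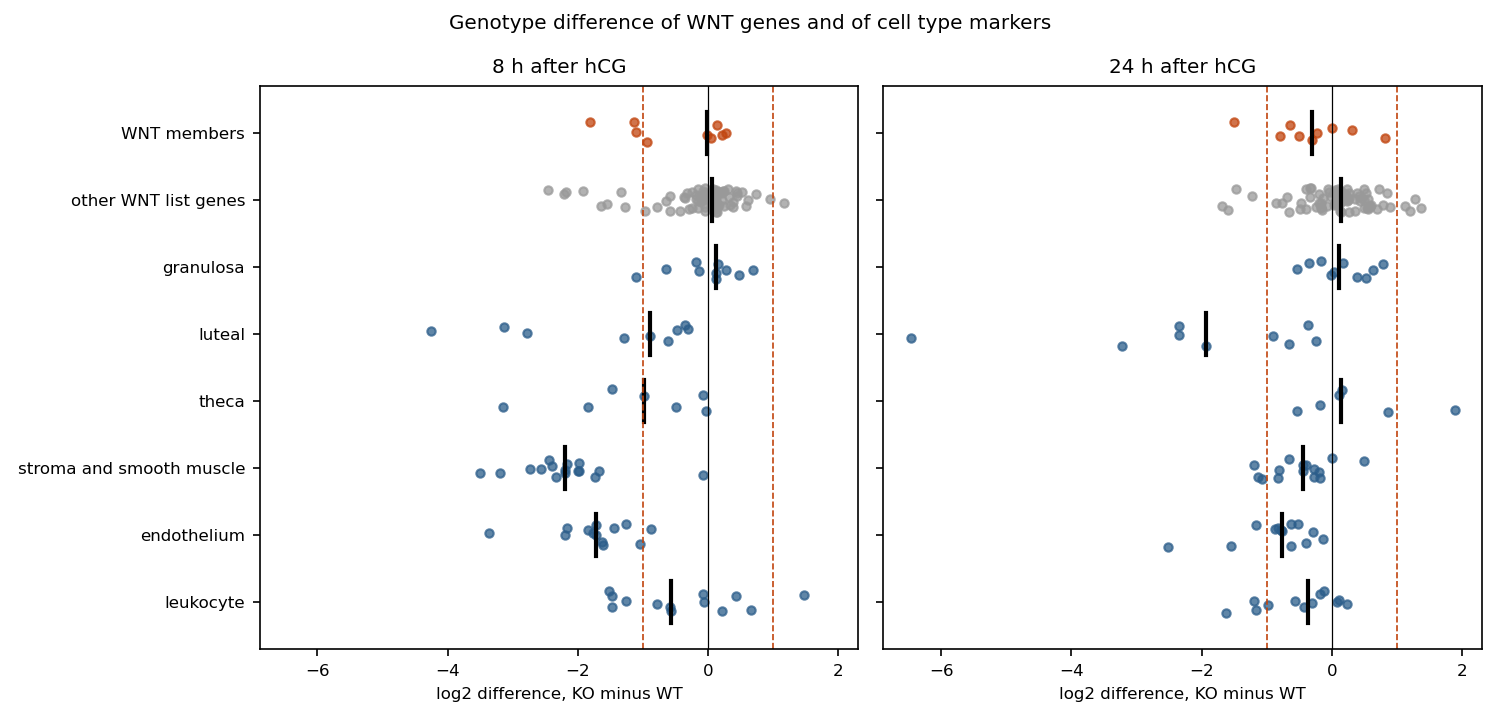
Log2 difference between knockout and wild type at 8 h (left) and 24 h (right) for the WNT members (red), the other genes of the WNT lists (grey) and markers of 6 cell types (blue). Each point is a gene above the floor, black bars are list medians, and dashed lines mark 2-fold. The stroma and endothelial medians lie at -2.20 and -1.72 at 8 h, and the members spread on both sides of a median of -0.02.

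For the knockout at 8 h against 4 h, all 5 arrays were quantile-normalized, because the 4 h array has its own scale. On that scale Wnt4 was 2.24-fold, Fzd1 2.80-fold and Sfrp2 4.74-fold higher at 8 h than at 4 h, and Sfrp1 2.91-fold lower on its representing probe set. Of 13747 genes, 29.8% passed, 17.9% higher and 11.9% lower, so 4 of 9 members is not far above the share of all genes. On the values as deposited, 838 genes were higher and 6062 lower, against 2461 and 1641 after normalization, with a median over all genes of -0.78 against 0.08. On the deposited values 6 members passed, 1 higher and 5 lower, against 3 higher and 1 lower after normalization. Wnt4 and Fzd1 then had differences of 0.38 and 0.67, short of the rule, while Sfrp2 was past it at 1.51 and Sfrp1 at -2.24. Sfrp4 (-1.85), Ccn5 (-1.31), Axin2 (-1.22) and Ctnnb1 (-1.87) passed there and not after normalization, and median centring called the same 6 members. For Sfrp1 the direction was opposite on 1448395_at and 1416594_at, at 1.94 and 1.62 after normalization.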

How the data were processed

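The authors' deposited values are intensities, whole numbers on a linear scale for 45101 probe sets on 5 arrays. No version is given for affy or RMA, named by the submitters' processing notes. RMA usually returns log2 values, so log2 was taken here before every comparison. Rounding makes differences coarse at low intensity. Only the 34958 probe sets with a single gene symbol were used, leaving out 932 with several and 9211 without a listed one. Symbols were updated through Entrez identifiers (34754 matched) from a RefSeq table of GRCm38.p6, used for names. The array groups came from the titles. Comparisons of single arrays used the size rule. The additive fit of genotype and time used limma 3.58.1 in R 4.3.3 with eBayes (trend) and Benjamini-Hochberg adjustment over all genes above the floor. It left out the knockout at 4 h, which has no wild-type partner. The fit was also run on simulated data with independent noise and no interaction, which cannot show that its p-values hold for these arrays. The number of arrays limits the precision. Alternatives varied the floor, the fold threshold, the probe set rule, the scaling and the fit. Named were all members, the WNT list genes past the rule in any of the 4 comparisons of genotype or of 24 h against 8 h, the 3 genes most like Ccn5 and Sfrp4 in pattern, and the targeted genes. The members, lists and rules were chosen with earlier results of these data known. Oxtr, Inha, Foxl2, Fst, Krt7 and the luteal markers were named after their values were seen.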

Additional observations from a re-analysis of the deposited data

Results flagged for a closer look

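For 4 members the changes between 8 h and 24 h differed by at least 2-fold between genotypes. None of these differences was tested, because each rests on 4 single arrays. In the pairs below, 0.04 for Sfrp2 and -0.09 for Wnt4 are close to 0, so those 2 pairs show no reversal. The second Wnt4 probe set changed by 0.19 in the knockout and 1.15 in wild type. Ccn5 was below wild type at 8 h (-1.11) and above it at 24 h (0.82, short of the rule), a difference of 1.93. Wnt4 was above wild type at 8 h (0.28) and below it at 24 h (-0.80), and changed by -0.09 in the knockout and 1.0 in wild type, a difference of -1.08. Sfrp2 differed by 0.04 at 8 h and -1.51 at 24 h, and changed by -1.31 in the knockout and 0.24 in wild type, a difference of -1.55. Sfrp1 changed by 1.0 in the knockout and by -0.31 in wild type, a difference of 1.31, and its other probe sets gave differences of 0.47 to 1.02. Stroma and smooth muscle markers had median time changes of 0.72 in the knockout and -0.95 in wild type, with the signs of Sfrp1, and 14 of 16 were higher for the difference between them, as Sfrp1 and Ccn5 were. Their part was not tested.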

How the results depend on the processing

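Over 69 recounts of the members past the size rule or called by limma, 57 stayed within 1.5 times the value reported. This compares only how many members passed, not which ones or their direction. The deposited values at 8 h against 4 h count as kept, with 1 higher and 5 lower against 3 higher and 1 lower. Also among those kept are the 5 limma genotype recounts, at 0 each. With a 1.5-fold threshold, 4 members passed between genotypes at 24 h and 6 between times in wild type. With a 3-fold threshold, 1 passed between genotypes at 8 h and 0 at 24 h, 2 between times in the knockout, 1 for the difference of the time changes and 1 for 8 h against 4 h. With the mean of all probe sets, 3 passed between times in the knockout, and Sfrp1 at 8 h against 4 h turned from -1.54 to 0.54, as its probe sets disagree. The limma time effect called 0 members without a filter on low values, when no gene passed, 2 with the mean of all probe sets, 2 after quantile normalization and 4 after median centring. Over all genes that effect called 321, against 537 with the mean of all probe sets, 637 after quantile normalization, 1235 after median centring and 174 without a trend in eBayes. Genotype counts of limma stayed at 0, over all genes too. Another floor, or leaving out _x_at, _s_at and _a_at probe sets, changed no member count. All 3 Ctnnb1 probe sets end in _a_at, so Ctnnb1 had no value in the latter. Chosen after seeing the data, leaving the knockout at 4 h out of the floor and the probe set choice changed no member count either. No paired analysis was possible because each group has 1 array, and for the same reason no replicate could be left out.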
